A study of Mus musculus with 8 samples.

Results

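The nuclei described here carry the label "hypertrophic chondrocyte/Osteoblasts" in the authors' annotation of the petrous part of the temporal bone (PTB), the dense bone that houses the inner ear. Annotated nuclei were matched by library and barcode to the raw UMI (unique molecular identifier) counts, and 4311 of the 31076 annotated nuclei (13.9%) belonged to this class. The study asked how loss of 1 copy of Tbx1, a T-box transcription factor gene, acts on the PTB and the cerebellar lobule beside it. PTBs came from P5.5 pups of both sexes, either Tbx1+/- mice, with 1 mutant and 1 intact allele, or their WT littermates, on a C57BL/6J background. Each of the 4 libraries, 2 per genotype, pooled 5 mice, so that the libraries and not the nuclei or the mice were the replicates. The replicate number was taken as the batch. Nuclei were released from frozen, pulverised bone, and 3′ ends of transcripts were sequenced, with reads in introns counted.

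Hypertrophic chondrocytes are the last stage of growth cartilage: they enlarge, make collagen X and Indian hedgehog, release the collagenase MMP13, and either die or turn into bone-forming cells. Osteoblasts build bone on the cartilage left behind, under the control of the transcription factors RUNX2 and SP7, and load it with type I collagen, bone sialoprotein, osteopontin and, through alkaline phosphatase, mineral. MMP13 is made by both, so that Mmp13, Alpl (alkaline phosphatase) and Sp7, the markers given for the class, could mark either.

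The class held 1257 nuclei in WT replicate 1, 1342 in Tbx1+/- replicate 1, 702 in WT replicate 2 and 1010 in Tbx1+/- replicate 2, with 3794766 to 6030338 UMIs per library. All 4311 nuclei were within limits on detected genes, UMIs and mitochondrial UMIs modelled here on those of the study. The annotated nuclei had already passed the study's own filter. The median nucleus of the class had 3975 to 4689 UMIs, 2227 to 2455.5 detected genes and 0.655% to 1.46% mitochondrial UMIs, close to the medians of the other annotated nuclei in the same libraries (3830 to 4773 UMIs). Any 2 libraries shared 45 to 82 barcodes, at most 0.601% of the smaller library. Levels are given as CPM, that is UMIs of a gene per 1000000 UMIs of the summed nuclei of a type in a library, with the mean ± SD over the 4 libraries. They compare the same gene between types and libraries, and were not used to compare genes with each other. The types were clustered on these same genes, so differences between types are described and not tested. WT replicate 1 stood apart from the other libraries for several abundant secreted genes and for blood RNA, and is named where that touches a result.

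Of the 3 markers, Mmp13 set the class apart, while Alpl and Sp7 were shared with osteoblasts and with CP1, a type of chondrocyte progenitor. Sp7 was also shared with matured osteoblasts/osteocytes. Mmp13 (chromosome 9, 7272514 to 7283331, plus strand, GRCm38) was at 2230 CPM in WT replicate 1, 1564 in Tbx1+/- replicate 1, 1863 in WT replicate 2 and 2037 in Tbx1+/- replicate 2. Its mean of 1923 ± 283 CPM (SD, n = 4) was the highest of the 15 types. Next came CT4, a connective tissue type, at 837 CPM, and the level was 255 CPM in osteoblasts and 176 CPM in osteoclasts. In each library the class was above osteoblasts, on average by 2.92 ± 0.30 on the log2 scale, a 7.56-fold difference. Alpl (chromosome 4, 137741733 to 137796384, minus strand) was at 377, 399, 388 and 387 CPM in the same order of libraries, the steadiest of the markers. The mean, 388 ± 8.77 CPM, ranked 3 of the 15 types, below osteoblasts (644 CPM) and CP1 (538 CPM). Sp7 (chromosome 15, 102356606 to 102367182, minus strand), at 180, 199, 203 and 209 CPM, ranked 4 with a mean of 198 ± 12.8 CPM, against 350 CPM in osteoblasts. On the log2 scale the class was below osteoblasts by a mean of -0.73 ± 0.10 for Alpl and -0.82 ± 0.06 for Sp7, in each of the 4 libraries.

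**Figure D1:**
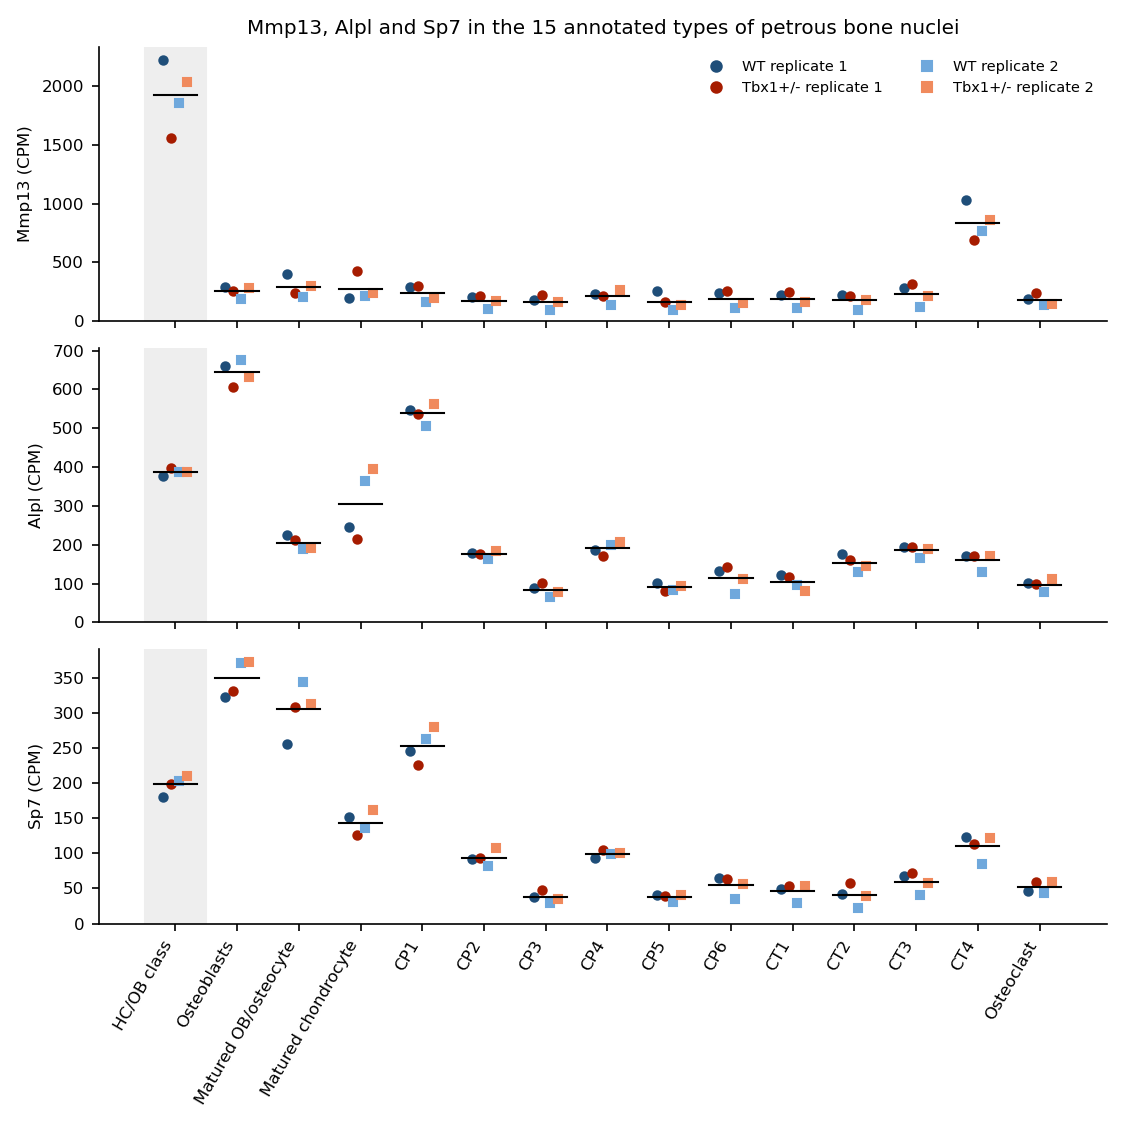
Levels of Mmp13, Alpl and Sp7 in CPM (y axes, from 0) in the 15 annotated types (x axis); points are libraries and black lines their means. Mmp13 lies at 1564 to 2230 CPM in the class (grey band) and at most at 1029 CPM in any other type (CT4), whereas osteoblasts exceed the class for Alpl and Sp7.

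The markers were then counted nucleus by nucleus. To compare shares at 1 depth, nuclei were thinned to 2000 UMIs, which left out 129 of the 4311 nuclei of the class, 125 of 5813 osteoblasts and 37 of 1559 osteoclasts. Mmp13 was then seen in 75.6% ± 3.22 of the class (86.7% before thinning), against 27.8% of osteoblasts (49.2% before) and 22.6% of osteoclasts (47.8% before). CT4 was nearest, with Mmp13 in 60.4% of its thinned nuclei (76.6% before), and its highest library (67.1%) lay below the lowest of the class (71.6%). Alpl was seen in 44.2% of the class, 62.4% of osteoblasts and 13.1% of osteoclasts, from 64.4%, 82.4% and 32.3% before thinning. For Sp7 the thinned shares were 30.4%, 48.5% and 7.29%, from 53.1%, 76.9% and 20.7%. Matured osteoblasts/osteocytes were also above the class for Sp7, at 42.8% of thinned nuclei (69.2% before). At least 1 of the 3 markers was seen in 91.9% ± 1.75 of the thinned nuclei (97.8% before) and all 3 in 9.82% ± 0.65. Osteoclasts, of another lineage, served as the background: at least 1 marker was seen in 36.0% of them (67.6% before), at a median of 5788 UMIs per nucleus against 4239 in the class.

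Mmp13 and Spp1, the gene of osteopontin, are textbook targets of RUNX2, and Mmp13 also of AP-1. Both are among the genes that lead the class, so the 250 bases before their RefSeq transcript starts (GRCm38.p6) are shown, with matches to the motif TGTGGT (Runx) or TGAGTCA (AP-1), read on either strand, in capitals.

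Mmp13, chr9:7272264-7272513, plus strand: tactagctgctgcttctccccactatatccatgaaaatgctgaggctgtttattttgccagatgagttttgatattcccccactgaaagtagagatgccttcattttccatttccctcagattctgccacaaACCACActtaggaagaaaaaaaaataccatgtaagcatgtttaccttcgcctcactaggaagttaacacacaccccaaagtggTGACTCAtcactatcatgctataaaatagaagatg

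Spp1, chr5:104434861-104435110, plus strand, upstream of the first of its start sites: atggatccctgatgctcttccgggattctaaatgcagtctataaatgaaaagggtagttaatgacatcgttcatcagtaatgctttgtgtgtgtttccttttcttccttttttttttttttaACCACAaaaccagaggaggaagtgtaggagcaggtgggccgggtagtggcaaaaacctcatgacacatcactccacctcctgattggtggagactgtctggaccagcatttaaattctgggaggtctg

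In the Mmp13 window a Runx match on the minus strand (ACCACA) begins 118 bases before the start and an AP-1 match (TGACTCA) 35 bases before it. In the Spp1 window the Runx match begins 128 bases before the start, and the window of the second Spp1 start site holds neither motif. Among all 32851 promoter windows of the same length, 14.0% held the Runx motif, 4.46% the AP-1 motif and 0.712% both. Of the 15 genes that lead the class (below), 12 were found in the promoter table, with 17 windows. The Runx motif was in 3 of these windows, those of Il12a, Mmp13 and Spp1, and the AP-1 motif in that of Mmp13 alone. A match describes the letters of the window and is not a bound site.

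Set against marker lists, the class held most bone matrix genes at levels between those of osteoclasts and osteoblasts. Several genes that define cartilage were closer to the level of osteoclasts than to that of matured chondrocytes. As a background for the lists, 7842 of the 15120 genes tested had at least 20 CPM in the class, and of these 4180 were above osteoclasts in all 4 libraries, 3952 above osteoblasts and 1505 below osteoblasts. Members of the lists were counted by the same limit. Of the 19 bone matrix genes, 19 were above osteoclasts and 14 below osteoblasts in all 4 libraries. Of the 14 osteoblast transcription factor genes, 10 had at least 20 CPM, of which 8 were above osteoclasts, 3 above and 3 below osteoblasts in all 4, and none was highest in the class. Runx2 averaged 6974 ± 329 CPM in the class, above osteoblasts (4631 CPM) and below CP1 (8806 CPM), a chondrocyte progenitor type. Alpl and Sp7 ranked 3 and 4 of the 15 types, as given above. Col2a1, the collagen of cartilage, was at 619, 534, 372 and 412 CPM in WT replicate 1, Tbx1+/- replicate 1, WT replicate 2 and Tbx1+/- replicate 2. That mean of 484 CPM ranked 12 of 15 types, near the 359 CPM of osteoclasts and far from the 3664 CPM of matured chondrocytes. Acan, the gene of aggrecan, was at 52.2 ± 9.02 CPM in the class, 36.7 CPM in osteoclasts and 1333 CPM in matured chondrocytes. The class ranked 8 of 15 types and was above osteoclasts in each of the 4 libraries. Among chondrocyte progenitors, CP3, CP5 and CP6 were lower, at 46.8 to 49.5 CPM, and CP1, CP2 and CP4 higher, at 67.2 to 234 CPM. After thinning, Acan was seen in 8.54% of the class, 6.33% of osteoclasts and 73.0% of matured chondrocytes (15.9%, 15.5% and 76.2% before thinning, with medians of 4239, 5788 and 2572 UMIs per nucleus). Sox9, the master regulator of chondrocytes, was at 17.0 CPM in the class and 15.2 CPM in osteoclasts, and Matn4, a matrilin of cartilage, was lowest of all types in the class at 52.0 CPM.

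The hypertrophic cartilage list holds genes that osteoblasts share and genes more particular to cartilage, and it went both ways. Of its 18 genes, 15 had at least 20 CPM, 13 were above osteoclasts in all 4 libraries, and 7 were above and 7 below osteoblasts. The list summed to 16722 to 23133 CPM in the class and 3440 to 4596 CPM in osteoclasts, with Runx2, Spp1 (4827 CPM), Ibsp (1947 CPM), Mmp13 (1923 CPM) and Mef2c (1824 CPM) among the genes summed. Col10a1, which encodes collagen X, was at 86.8 CPM in WT replicate 1 and at 24.7, 32.1 and 25.9 CPM in the other libraries. The mean of 42.4 ± 29.8 CPM ranked 2, but matured chondrocytes were at 192 CPM and the remaining 13 types at 17.6 to 27.9 CPM. A single nucleus held 90 of the 475 Col10a1 UMIs of the class in WT replicate 1 and 46 of the 122 in WT replicate 2. In Tbx1+/- replicates 1 and 2 the highest nucleus held 3 of 149 and 17 of 132. Ihh (Indian hedgehog) was at 1.94 CPM in the class against 50.8 CPM in matured chondrocytes, and Foxa2 and Foxa3, regulators of hypertrophy, at 0.485 and 0.491 CPM against 12.6 and 10.1 CPM. Of the hypertrophic list, 2 genes were highest in the class, Mmp13 and Spp1, and of the 21 chondrocyte matrix genes none was. Of the latter, 13 had at least 20 CPM, with 9 above osteoclasts and 5 above and 5 below osteoblasts in all 4 libraries. The chondrocyte matrix genes summed to 3382 to 4046 CPM in the class and 1771 to 2659 CPM in osteoclasts, higher in the class in each library. Chondrocytes lower Col2a1, Acan and Sox9 as they become hypertrophic, so the low levels of these genes do not alone decide the hypertrophic name. Here matured chondrocytes, the type with the most Col10a1 (192 CPM), also had the most Acan (1333 CPM). These are means of a type, and whether the same nuclei held both genes was not tested. Of the genes named above for hypertrophic chondrocytes, which need not peak at the same step, Col10a1 and Ihh were below matured chondrocytes and Mmp13 was above. After thinning, Col10a1 was seen in 4.97% of the class, 4.30% of osteoblasts, 3.15% of osteoclasts and 13.3% of matured chondrocytes (9.96%, 8.85%, 8.32% and 16.5% before). Ihh was seen in 0.361%, 0.691%, 0.380% and 7.95% of the same types (0.809%, 1.87%, 0.832% and 10.5% before). By these shares both genes lay near osteoblasts and osteoclasts in the class. The markers therefore do not settle the hypertrophic part of the label. The class is called the HC/OB class here, after its label, or the Mmp13-high class.

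**Figure D2:**
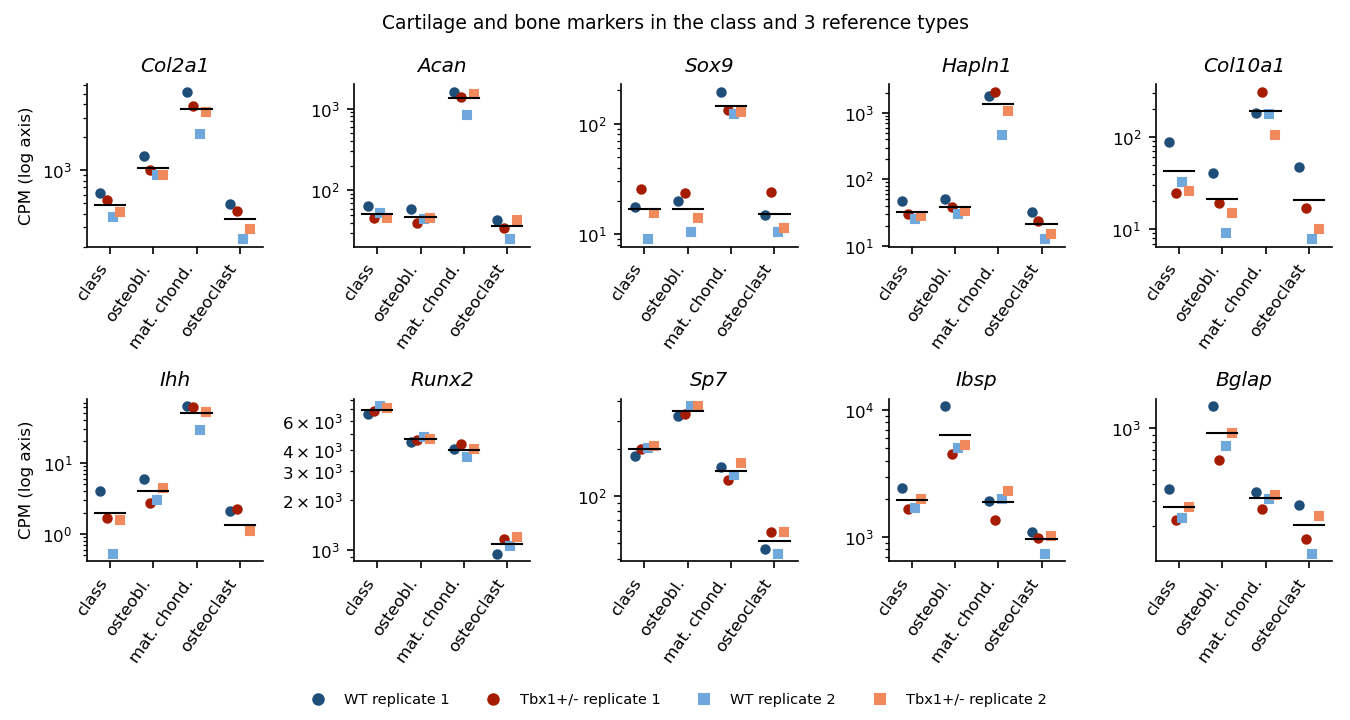
CPM on log axes of 6 cartilage genes (Col2a1, Acan, Sox9, Hapln1, Col10a1, Ihh) and 4 bone genes (Runx2, Sp7, Ibsp, Bglap) in the class, osteoblasts, matured chondrocytes and osteoclasts; points are libraries, lines their means, and a library at 0 (Ihh in osteoclasts) is not drawn. For Acan and Sox9 the class (52.2 and 17.0 CPM) lies near osteoclasts and osteoblasts, far below matured chondrocytes.

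The genes with the largest ratio to every other type included 3 noncoding transcripts, Tnc, Spp1 and Mmp13. Among 7161 genes with at least 20 CPM in the class in each library, 470 (6.56%) had their highest mean in the class. The 15 with the largest ratio to the next highest type were highest in the class in 4 of 4 libraries. Tnc, which encodes the matrix glycoprotein tenascin C, was at 3494, 3953, 3663 and 4363 CPM (WT replicate 1, Tbx1+/- replicate 1, WT replicate 2, Tbx1+/- replicate 2). This was 3.82-fold above CP1, the next type at 1013 CPM, and 5.92-fold above osteoblasts at 655 CPM. The transcript 8030451A03Rik, at 2029 ± 263 CPM and 4.39-fold above CP1, overlaps Tnc on the opposite strand over 67162 bases, and the pair can be told apart only where the counting kept the strand. Tnc was seen in 92.0% of nuclei of the class thinned to 2000 UMIs (95.9% before), against 42.1% of osteoblasts and 24.1% of osteoclasts (60.7% and 45.2% before).

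Gfra1, a coreceptor for glial cell line-derived neurotrophic factor (chromosome 19, 58235604 to 58455909), averaged 281 CPM, 3.54-fold above the next type, and was seen in 25.2% of thinned nuclei against 5.26% of osteoblasts and 3.81% of osteoclasts (35.4%, 10.0% and 9.14% before). Esr1, the oestrogen receptor alpha, averaged 253 CPM and the cation channel gene Trpc6 156 CPM, 2.54- and 2.63-fold above the next type. Trpc6 overlaps the noncoding gene Gm32014 on the opposite strand over 36669 bases. Esr1 and Ccdc170, which was 2.76-fold above the next type, are neighbours on the plus strand of chromosome 10 (4611593 to 5005614 and 4482502 to 4562231). Heyl, a transcriptional effector of Notch, was at 28.5, 36.3, 33.2 and 31.9 CPM and 3.12-fold above the next type. Secreted proteins completed the protein-coding genes. They were Serpine2, a protease inhibitor (1396 CPM), Ccbe1, a matrix protein needed for lymphatic vessels (182 CPM), Ccn5, a matricellular protein (29.2 CPM), Il12a, a cytokine subunit (27.8 CPM), Spp1 and Mmp13. The long noncoding RNA Gm20619 had the largest ratio, 6.69, at 116 ± 18.6 CPM, and 4833422C13Rik, annotated as antisense, a ratio of 3.04.

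Osteopontin was the one leading gene with a wide spread. Spp1 was at 8322 CPM in WT replicate 1 and at 3130, 3625 and 4230 CPM in Tbx1+/- replicate 1, WT replicate 2 and Tbx1+/- replicate 2. It was also highest in WT replicate 1 in osteoblasts (2284 CPM against 1027 to 1558 CPM) and in osteoclasts (1111 CPM against 582 to 935 CPM). In each library the class still exceeded osteoblasts, on average by 1.64 ± 0.24 on the log2 scale.

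**Figure D3:**
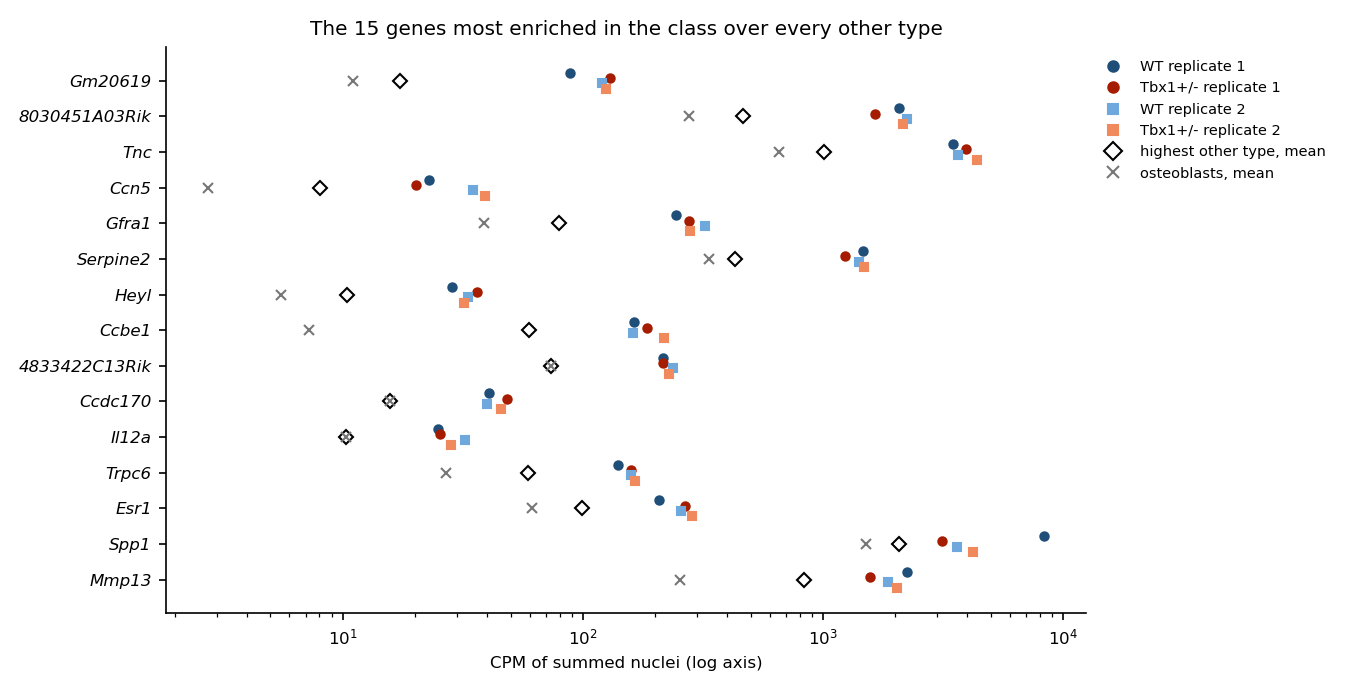
CPM on a log axis of the 15 genes with the largest ratio of the class to the next highest type; coloured points are the class in each library, open diamonds the mean of the next highest type and crosses the mean of osteoblasts. All 4 libraries of the class lie to the right of the diamond for each gene, and Spp1 in WT replicate 1, at 8322 CPM, lies apart from the other libraries.

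Over all genes, the class was most like CP1 and osteoblasts. The correlation of log2 CPM across 10670 genes, which are not independent replicates, was 0.946 to 0.961 with CP1 and 0.939 to 0.950 with osteoblasts in the 4 libraries, and lowest with osteoclasts (0.767 to 0.799). The types compared share a library and its free RNA. Of 8113 genes with at least 20 CPM in the class or in osteoblasts, 385 were at least 2-fold higher and 197 at least 2-fold lower in the class in all 4 libraries.

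Bone matrix genes were mostly lower in the class than in osteoblasts. Of 19 genes on that list, 14 were below osteoblasts in all 4 libraries and 5 above. Type I collagen was among the lower ones, with Col1a1 at 3468 ± 774 CPM in the class and 9349 CPM in osteoblasts. Bone sialoprotein (Ibsp) was at 1947 against 6416 CPM and osteocalcin (Bglap) at 273 against 925 CPM, the latter uncertain because Bglap and Bglap2 are near-identical copies. Minor and fibril-organising collagens were the farthest apart, with Col11a1 at 1641 against 8453 CPM, Col24a1 at 297 against 2083 CPM and Col22a1 at 176 against 1181 CPM. The 5 genes that were higher were Tnc, Spp1, Fn1 (fibronectin, 897 against 569 CPM), Postn (periostin, 197 against 105 CPM) and Omd (osteomodulin, 106 against 89.0 CPM).

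Mineralisation genes went both ways. Of the 12 genes of this list with at least 20 CPM, 7 were above and 5 below osteoblasts in 4 libraries, and 2 were highest of all types in the class, Slc20a2 and Spp1. Among the lower ones was Alpl, whose enzyme hydrolyses pyrophosphate, at 388 against 644 CPM. Smpd3, the sphingomyelinase of matrix vesicles, was at 645 against 2952 CPM in osteoblasts, Phex, an endopeptidase of phosphate balance, at 675 against 1597 CPM, and the citrate transporter gene Slc13a5 at 36.9 against 366 CPM. Others were higher. Enpp1, which makes the mineralisation inhibitor pyrophosphate, was at 215 against 62.1 CPM, Ank, which exports it, at 689 against 211 CPM, and the phosphate transporter gene Slc20a2 at 168 against 51.3 CPM. Dmp1, a matrix protein of osteocytes, was at 243 CPM in the class, 228 CPM in osteoblasts and 1761 CPM in matured osteoblasts/osteocytes.

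Cell cycle genes were higher in the class than in osteoblasts. Of the S phase genes, 25 had at least 20 CPM and 25 were above osteoblasts in all 4 libraries. Of the G2/M genes, 39 had at least 20 CPM and 37 were above, and none of either list was below in all 4. Among the genes with at least 20 CPM, 2 of 25 S phase and 6 of 39 G2/M genes were highest in the class of the 15 types. Over all genes tested this held for 508 of 7842. Top2a, a topoisomerase of dividing cells, was at 150, 161, 174 and 184 CPM in the class and averaged 59.5 CPM in osteoblasts, and Mki67 averaged 78.6 against 38.1 CPM. After thinning, Top2a was seen in 16.1% of the class, 7.64% of osteoblasts, 10.6% of osteoclasts and 17.0% of matured chondrocytes (24.0%, 15.3%, 19.5% and 22.4% before). The types were clustered on genes that may include these, so the counts describe the annotation.

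Signals to osteoclasts and blood vessels were among the genes highest in the class. Tnfsf11, which encodes RANKL, the ligand that drives osteoclast formation, was at 55.9, 60.9, 66.7 and 63.9 CPM (mean 61.8 ± 4.61). It was at 45.3 CPM in CP1, 8.01 CPM in osteoblasts and 7.03 CPM in osteoclasts, and was seen in 9.46% of thinned nuclei of the class, 1.26% of osteoblasts and 0.751% of osteoclasts (18.2%, 3.47% and 3.13% before). Its decoy receptor gene Tnfrsf11b was at 23.9 CPM and ranked 8. Csf1, the growth factor of the osteoclast lineage, averaged 208 ± 11.4 CPM against 54.6 CPM in osteoblasts, and Angpt1, a ligand of vessel stability, 637 ± 34.1 against 430 CPM. Of the 11 genes on this list, 3 were highest in the class.

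Of 10 Notch signalling genes, 7 had at least 20 CPM, of which 6 were above osteoblasts in 4 libraries and none was below. Notch3 averaged 92.5 CPM against 14.9 CPM in osteoblasts, and the Notch target Hey1 21.2 against 4.71 CPM, both highest in the class. Of the 24 Wnt genes, the receptor gene Lrp4 (1174 ± 207 CPM) and the inhibitor gene Wif1 (273 ± 11.2 CPM) were highest in the class, while 11 had at least 20 CPM. Bmpr2, a BMP receptor gene, was highest in the class at 308 CPM, and Bmp6 was at 83.2 ± 4.05 CPM against 14.4 CPM in osteoblasts and 529 CPM in CT2. No gene of the hedgehog and PTH list or of the FGF list with at least 20 CPM was highest in the class. Pth1r, the receptor of parathyroid hormone, was at 324 CPM against 618 CPM in osteoblasts.

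A few genes known from marrow stroma and from cells around vessels were highest in the class. Of the 24 mesenchymal, fibrous and periosteal genes, 13 had at least 20 CPM in the class. Of these, 12 were above osteoclasts in all 4 libraries, against 4180 of 7842 over all genes tested. The list still summed to 2435 to 3416 CPM in the class against 4946 to 6843 CPM in osteoclasts. The sum thus does not show the direction of most of the 13. Among the 13, 2 were highest in the class. Of those 2, Lepr, the leptin receptor, averaged 229 ± 28.5 CPM and Cxcl12, a chemokine of marrow stroma, 227 ± 13.3 CPM, against 36.0 and 40.3 CPM in osteoblasts. Of the 6 pericyte and smooth muscle genes, 3 were highest in the class, Pdgfrb (251 CPM), Abcc9 (126 CPM) and Notch3, and these were the 3 with at least 20 CPM. Rgs5 and Myh11, which define pericytes and smooth muscle more narrowly, were at 11.9 and 2.96 CPM and ranked 10 and 8.

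Levels of many genes differed across the class on the authors' UMAP. The class was split at the medians of those coordinates into 4 sectors. This division was chosen after its values were seen, so the levels that follow are a description. The lower left sector held 1254 nuclei, the upper left 902, the lower right 902 and the upper right 1253, with medians of 4030 to 4699 UMIs. In the order given, 539, 715, 273 and 222 genes had at least 20 CPM in a sector and were highest there in all 4 libraries. The UMAP was drawn from expression in these same nuclei, so genes that peak in a sector follow in part from the split. The share over all genes is not given here, so the counts do not measure how distinct the sectors are.

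In the lower left sector Cxcl12 peaked. It was at 607 ± 39.5 CPM there and at 68.6 to 88.0 CPM in the other sectors, which did not overlap with it in any library. Pappa, a protease of IGF binding proteins, was at 1056 CPM against at most 120 CPM, Kitl, the ligand of KIT, at 193 against 23.4 CPM, and Pparg, a regulator of fat cell fate, at 324 against 60.4 CPM. Notch3 (204 against at most 56.2 CPM), Bmp6 (210 against 46.7 CPM), Rspo3, an enhancer of Wnt signalling (299 against 67.0 CPM), and Angpt1 (1051 against 617 CPM) were highest in the same sector. Among the leading genes, Ccbe1 (458 against 27.5 to 148 CPM), Esr1 (469 against 94.7 to 326 CPM) and Trpc6 (398 against 44.5 to 99.9 CPM) were highest there too. The class means of Cxcl12, Notch3, Bmp6, Ccbe1, Esr1 and Trpc6 given above thus average over sectors that differ several-fold.

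The upper left sector was where Mmp13 peaked, at 3664 ± 595 CPM against 942 to 1634 CPM in the others. Cemip, which degrades hyaluronan, was at 2783 against at most 402 CPM, F13a1, a transglutaminase, at 1017 against 160 CPM, and Itga2, a collagen receptor subunit, at 351 against 75.4 CPM. Mmp9, a gelatinase, was at 882 CPM against at most 514 CPM, and Alpl was at its lowest there, 200 CPM. Mean Col10a1 was also highest in this sector, at 196 CPM in WT replicate 1 and at 30.6, 55.7 and 60.1 CPM in Tbx1+/- replicate 1, WT replicate 2 and Tbx1+/- replicate 2. In WT replicate 2 a single nucleus held 46 of the 122 Col10a1 UMIs of the class, so the sector it falls in weighs on that level.

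In the lower right sector, Alpl was at 604 ± 27.9 CPM, Sp7 at 268 CPM and Wif1 at 543 CPM, each highest there in 4 of 4 libraries. Alpl was at 431 CPM in the lower left and 353 CPM in the upper right. Pdgfd, a ligand of PDGF receptor beta, was at 1149 against at most 561 CPM. In the upper right sector, Ank was at 1486 ± 142 CPM against at most 608 CPM, Enpp1 at 380 against 156 CPM and Dmp1 at 506 against 189 CPM. The Wnt inhibitor gene Sfrp4 (49.4 against 16.4 CPM) and Tnfrsf11b (44.0 against 20.3 CPM) also led there. Acan averaged 40.0 to 65.2 CPM in the sectors, against 36.7 CPM in osteoclasts and 1333 CPM in matured chondrocytes. In the upper right, where its mean was highest, Acan was at 49.8 to 90.4 CPM. There, as in the class as a whole, it was above osteoclasts (25.2 to 43.8 CPM) in each of the 4 libraries.

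**Figure D4:**
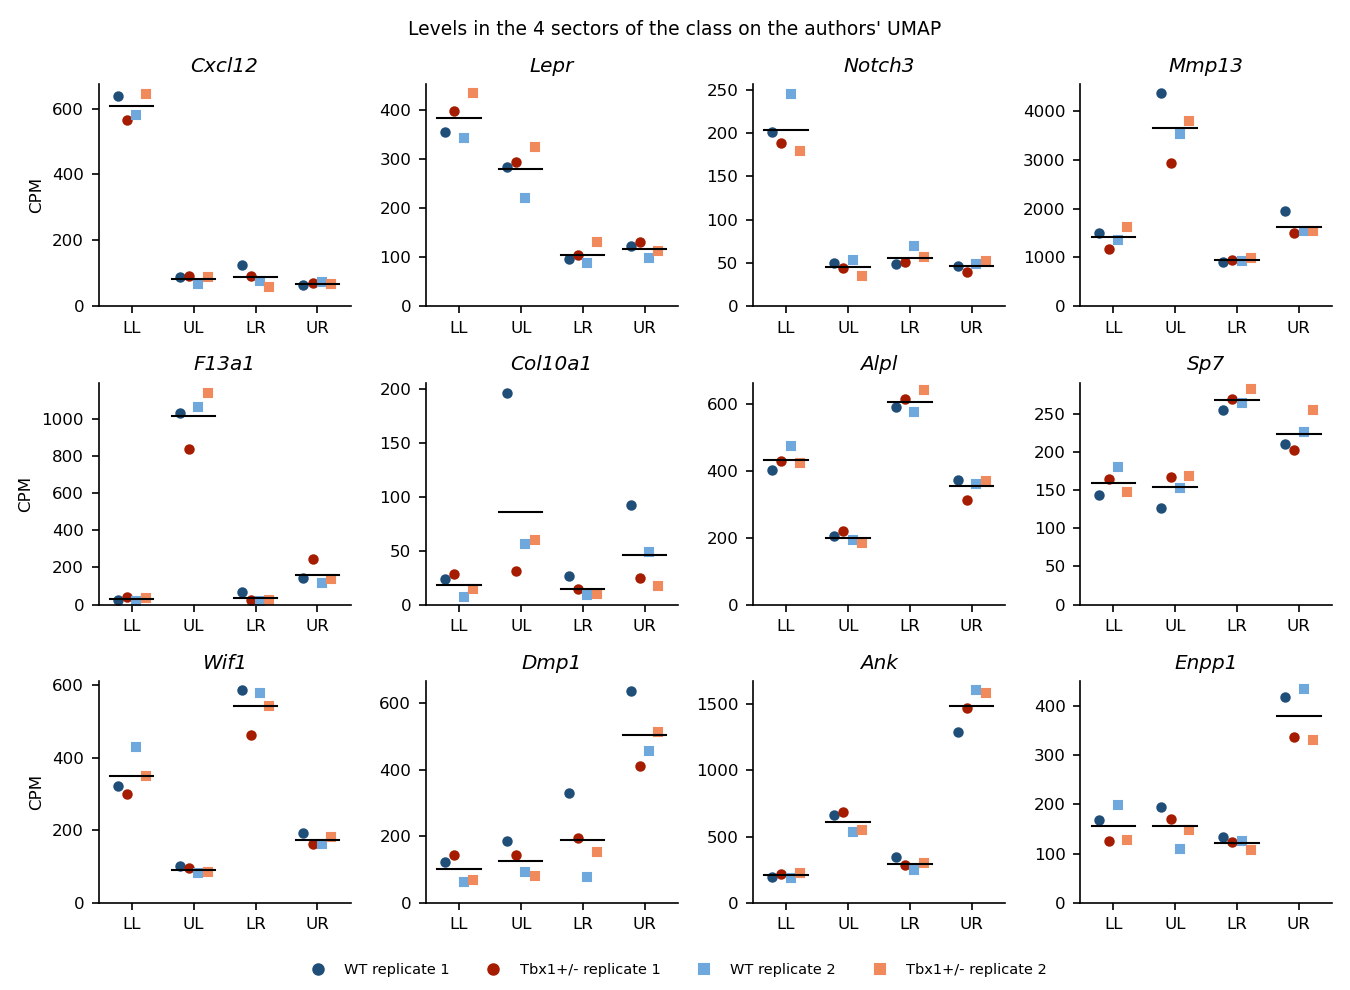
CPM (y axes, from 0) of 12 genes in the lower left (LL), upper left (UL), lower right (LR) and upper right (UR) sectors of the class on the authors' UMAP; points are libraries and lines their means. Cxcl12 and Notch3 stand out in LL, Mmp13 and F13a1 in UL, Alpl and Wif1 in LR, and Dmp1, Ank and Enpp1 in UR.

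The sectors were present in all libraries. The lower left took 27.6% and 26.2% of the class in WT replicates 1 and 2 and 32.9% and 27.8% in Tbx1+/- replicates 1 and 2. The upper right took 30.9% and 33.2% in WT and 25.0% and 29.3% in Tbx1+/-. For both, the genotypes did not overlap, though the nearest libraries for the lower left were at 27.6% (WT replicate 1) and 27.8% (Tbx1+/- replicate 2). For the upper left (23.5% and 19.5% against 18.0% and 22.6%) and lower right (18.0% and 21.1% against 24.1% and 20.3%) the genotypes overlapped. These shares were not tested.

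The class took a larger share of the annotated nuclei in Tbx1+/- than in WT libraries, a difference that passed its test and did not hold under several other settings. It took 12.6% of nuclei in WT replicate 1 (95% exact binomial interval 12.0 to 13.3, counting error only), 15.4% in Tbx1+/- replicate 1 (14.7 to 16.2), 11.7% in WT replicate 2 (10.9 to 12.6) and 15.7% in Tbx1+/- replicate 2 (14.9 to 16.7). Both Tbx1+/- libraries were above both WT libraries. The means were 15.6% ± 0.232 and 12.2% ± 0.609 (SD, n = 2 each), and the difference was 2.82 percentage points in batch 1 and 4.01 in batch 2. An exact two-sided permutation test gave p = 0.33, the smallest that 2 against 2 libraries allow. By edgeR's quasi-likelihood test the log2 difference was 0.36 (SE 0.08), with an adjusted p of 0.0744 over 7 classes merged from the annotation's 15 types, under the study's false discovery rate of 0.1. Over the 15 types themselves the adjusted p was 0.421. With the replicate block the adjusted p was 0.700, and without Tbx1+/- replicate 1 or Tbx1+/- replicate 2 it was 0.398 or 0.510.

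The share depends on what it is set against. The ratio of the class to osteoblasts was 0.863 and 0.586 in WT replicates 1 and 2 and 0.720 and 0.781 in Tbx1+/- replicates 1 and 2. The genotypes overlapped, and the log2 difference, 0.08 on average, was -0.26 in batch 1 and 0.41 in batch 2 (exact permutation p = 1). Without WT replicate 2 it was -0.20. The ratio to the chondrocyte progenitors CP1 to CP6 was 0.286 and 0.290 in WT and 0.426 and 0.402 in Tbx1+/- libraries, a log2 difference of 0.52 (0.57 and 0.47 in the batches; exact permutation p = 0.33). The connective tissue type CT1, part of the same denominator, took 13.2%, 10.1%, 5.55% and 1.84% of nuclei in WT replicate 1, Tbx1+/- replicate 1, WT replicate 2 and Tbx1+/- replicate 2, and its part in the class's share was not tested.

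Tbx1 itself (chromosome 16, 18580979 to 18590671, minus strand) was read in the class at 45.7, 30.8, 38.7 and 40.4 CPM in WT replicate 1, Tbx1+/- replicate 1, WT replicate 2 and Tbx1+/- replicate 2. The genotypes overlapped, and edgeR gave a log2 difference of -0.27 (SE 0.19, unadjusted p = 0.195). The study reported a significant reduction of Tbx1 in Tbx1+/- mice for the major bone cell populations. The part of the gene that the mutant allele lacks is not given in the sources used here. How far 3′ counts in this class show the loss of an allele was not tested. The class mean, 38.9 CPM, was above osteoblasts (27.3 CPM) and osteoclasts (11.2 CPM) and below CP6 (81.8 CPM), the highest type. Within the class the mean was highest in the upper right sector, at 55.8 ± 7.41 CPM, which led in 3 of 4 libraries.

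No gene was called between genotypes within the class. Of 15120 genes tested with edgeR's quasi-likelihood test, 0 (0%) were called at an adjusted p under 0.05 with a change above 1.5-fold, and DESeq2 called 0. Without WT replicate 2, Cd63 and Col10a1 were called, a setting in which WT replicate 1, the library that stood apart, was the only WT library. Col10a1 was at 86.8 CPM in WT replicate 1 and 32.1 CPM in WT replicate 2. At an unadjusted p under 0.05 there were 273 (1.81%), 77 higher (0.509%) and 196 lower (1.3%) in Tbx1+/-, and 42 in all by DESeq2. That number was 662 with the replicate block, 798 without WT replicate 1 and 720 without WT replicate 2. The CPM of the 2 genotypes did not overlap for 26.2% of genes, 13.9% higher and 12.3% lower. Mmp13, Alpl and Sp7 differed by -0.20 (SE 0.17), 0.02 (SE 0.11) and 0.08 (SE 0.12) on the log2 scale, and the genotypes overlapped for all 3. Spp1 differed by -0.72 (SE 0.36), with -1.43 in batch 1, which holds WT replicate 1, and 0.22 in batch 2. Enpp1 was at 246 and 238 CPM in WT and 188 and 187 CPM in Tbx1+/- libraries, which do not overlap (log2 difference -0.38, SE 0.11, unadjusted p = 0.00891, edgeR adjusted p = 1.00). In the bone matrix list 15 of 19 genes were lower and 4 higher, with a median of -0.14. The summed CPM of that list was 29894 in WT replicate 1 and 22997 in Tbx1+/- replicate 1, but 20031 in WT replicate 2 and 22150 in Tbx1+/- replicate 2, so its direction turned between batches. In the G2/M list 41 of 52 were higher and 11 lower, with a median of 0.14. The summed CPM of the G2/M list was 2227 and 2494 in WT replicates 1 and 2 and 2473 and 2565 in Tbx1+/- replicates 1 and 2. The genotypes overlapped for that sum. Over all 15120 genes tested, 7375 were higher and 7745 lower, with a median of -0.0048, and no member of these lists was called.

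Ranked by p among genes with the same sign in both batches, the first were Tmem132d (2.82 on the log2 scale), a transmembrane protein gene, and Slc25a21 (1.40), a mitochondrial carrier gene. After these came Gm26979 (-0.60), Myzap (-0.66), Kcnrg (-0.53), Map3k7cl (-1.17), Galntl6 (-1.05), Crb1 (-1.30), Gm16541 (-0.62) and Gm48708 (-0.73), all with negative differences. All 10 had an edgeR adjusted p of 1.00. For Slc25a21 a single nucleus held 48 of the 87 UMIs in Tbx1+/- replicate 2, and without the 8% of nuclei richest in UMIs the difference was 0.74 (edgeR unadjusted p = 0.152).

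The genotype difference in the class was then set against that in osteoblasts of the same libraries, and 2 of 16200 genes (0.0123%) were called by edgeR's test of the interaction, 1 in each direction (0.00617% each), while DESeq2 called 0. At an unadjusted p under 0.05 there were 4.48%, with 2.75% higher and 1.73% lower. The replicate block by type gave 13 calls, and leaving out 1 library 13 to 25, these 2 genes among them each time. In both genes single nuclei held many of the UMIs. Galntl6 (chromosome 8, 57774052 to 58912640, minus strand), which encodes a relative of the enzymes that start O-linked glycosylation, had a difference of -1.53 (SE 0.24, edgeR adjusted p = 0.0395). In the class it had 96, 71, 95 and 44 UMIs in WT replicate 1, Tbx1+/- replicate 1, WT replicate 2 and Tbx1+/- replicate 2. A single nucleus held 58 of the 96 UMIs in WT replicate 1 and 55 of the 95 in WT replicate 2, against 12 and 3 in the Tbx1+/- libraries. Tmem132d (chromosome 5, 127781630 to 128433077, minus strand) had a difference of 3.78 (SE 0.60, edgeR adjusted p = 0.0395), from 5 and 1 UMIs in WT and 32 and 21 in Tbx1+/- replicates 1 and 2. A single nucleus held 15 of the 21. With each gene's highest nucleus left out of each library and type, a setting added after the values were seen, 0 genes were called, and Galntl6 and Tmem132d differed by -0.36 (edgeR adjusted p = 1.00) and 3.43 (edgeR adjusted p = 0.749).

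**Figure D5:**
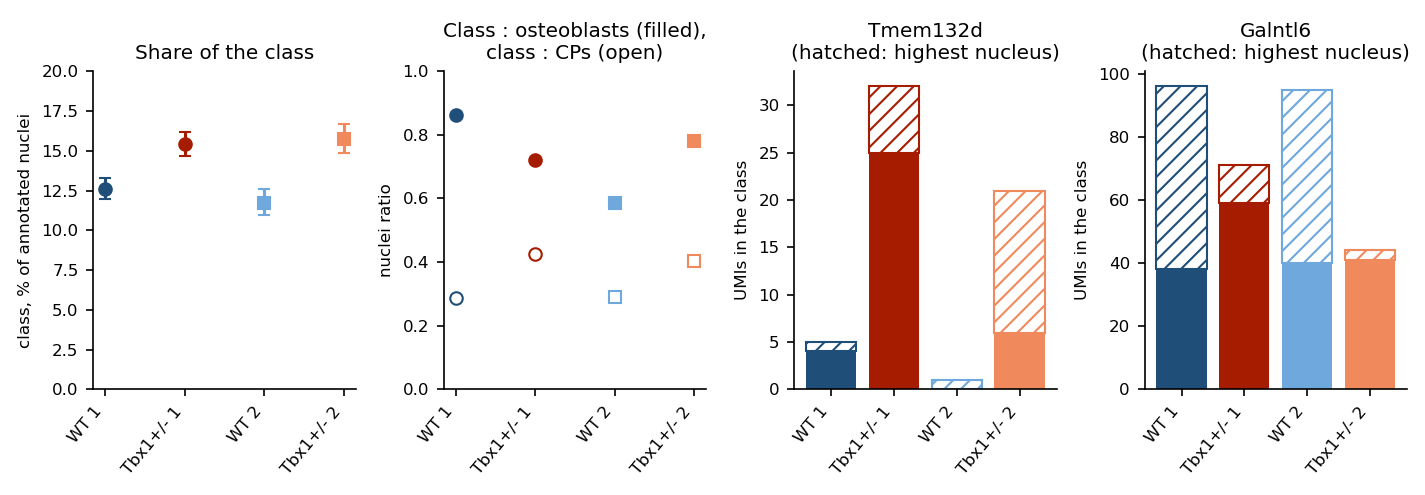
By library: the share of the class in percent of annotated nuclei with 95% exact binomial intervals, the ratios of the class to osteoblasts (filled) and to CP1 to CP6 (open), and the UMIs of Tmem132d and Galntl6 in the class, with the nucleus of most UMIs hatched. The shares of the Tbx1+/- libraries lie above those of WT, the ratios to osteoblasts do not separate, and 58 of 96 and 55 of 95 Galntl6 UMIs in WT come from 1 nucleus each.

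Spp1 came next by p, with an interaction of -0.39 (SE 0.06, edgeR adjusted p = 0.0480), below the 1.5-fold limit, and -0.39 in each batch. Bmp6 was at 77.6, 86.2, 82.7 and 86.2 CPM in the class and differed by -0.78 on the log2 scale in osteoblasts (edgeR unadjusted p = 0.0115), an interaction of 0.89 (edgeR adjusted p = 0.0961). Negr1 (0.58), Thbs1 (0.54) and Col1a1 (0.43) had positive and Mmp9 (-0.56), F13a1 (-0.74) and Enpp1 (-0.54) negative values with edgeR adjusted p of 0.0712 to 0.0994. The settings did not agree on these genes. Bmp6 and F13a1 were among the 13 calls with the replicate block by type. With nuclei of at least 2000 genes, Bmp6, F13a1, Enpp1 and Mmp9 were among 8 calls, while DESeq2 called none. Several of these values depended on the nuclei compared. When the progenitors CP1 to CP6 took the place of osteoblasts, Bmp6 differed by 0.08, Negr1 by 0.23, Thbs1 by 0.16, Col1a1 by -0.09, Mmp9 by -0.55, F13a1 by -0.41 and Enpp1 by -0.36 (edgeR adjusted p = 1.00 for each), and Spp1 by -0.72 (edgeR adjusted p = 0.188). Without the 8% of nuclei richest in UMIs, F13a1 differed by -0.16, Enpp1 by -0.29 and Negr1 by 0.43 (edgeR adjusted p = 1.00 for each), and Spp1 by -0.30 (edgeR adjusted p = 0.4996). Without Tbx1+/- replicate 1, Col1a1 differed by 0.26 and Thbs1 by 0.34 (edgeR adjusted p = 0.473 and 0.504).

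Markers of other cell types were set beside their level in osteoclasts. The 6 pericyte and smooth muscle genes summed to 459 to 525 CPM in WT and 459 to 510 CPM in Tbx1+/-, against 66.7 to 89.3 CPM in osteoclasts. Summed over 12 osteoclast genes the class held 997 to 1689 CPM in WT and 1214 to 1277 CPM in Tbx1+/-, against 13233 to 14736 CPM in osteoclasts, and Calcr and Oscar were at 1.32 and 3.66 CPM. The 7 erythroid genes summed to 496 to 1072 CPM in WT and 437 to 617 CPM in Tbx1+/-, against 283 to 585 CPM in osteoclasts, and were above osteoclasts in each library. The sum was highest in WT replicate 1, where Spp1 and Col10a1 were also highest. The 8 muscle genes summed to 305 to 343 CPM in batch 1 and 44.9 to 76.4 CPM in batch 2, against 671 to 1052 CPM in osteoclasts. The 8 immune genes reached at most 135 CPM (467 CPM in osteoclasts), the 7 endothelial genes 144 CPM (166 CPM) and the 8 neuronal genes 106 CPM (95.3 CPM), and Gabra6 was at 0 in 2 libraries. Ttr, a choroid plexus transcript, was at 4.20 and 26.4 CPM in WT and at 107 and 22.5 CPM in Tbx1+/- replicates 1 and 2. Whether such RNA has a part in the values above was not tested.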

How the data were processed

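The members of the class, the gene lists and the tests were chosen with earlier results of these data known. The deposited matrices hold raw UMI counts, which the authors obtained from Cell Ranger 7.0.0 in intron mode on mm10 (tool, version and build per the submitters' processing notes), before their SoupX correction. Cell types and UMAP coordinates (unit: score) were taken as deposited from the authors' annotation, in which Louvain clusters were named by label transfer and curation. No doublet removal is described; an alternative dropped the 8% of nuclei richest in UMIs. GENCODE vM21 held 32235 of the 32285 feature identifiers.

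UMIs were summed per library and type. Genotypes were compared with edgeR 4.0.16 (filterByExpr, TMM, quasi-likelihood test, Benjamini-Hochberg over all genes) and DESeq2 1.42.0 in R 4.3.3, called at an adjusted p under 0.05 and a change above 1.5-fold, and the difference from osteoblasts with the type by genotype interaction and library terms. Each SE was derived from the log2 change and its F statistic. Shares were tested likewise, with all annotated nuclei as offset, over 7 classes merged from the 15 types at a false discovery rate of 0.1; DCATS, used in the study, was not run. P-values measure the spread between libraries of pooled mice. Scripts were tested on simulated data. Ratios between types used log2(CPM + 1), and the likeness of types log2(CPM + 10).

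Named genes were Tbx1, the 3 markers, members of 25 gene lists, the 15 genes that lead the class (at least 20 CPM in each library) and, per fit, the called genes and the 10 with the smallest p of the same direction in both batches. Genes named for a sector were chosen after their values were seen. The study describes separate batches of mice. Same-numbered libraries were taken to form a batch, which the sample labels do not state. Across 15120 genes their deviations from the genotype means had a correlation of 0.366. The cerebellar libraries were not used here. A further gene of the lists is not reported here.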

Additional observations from a re-analysis of the deposited data

Results flagged for a closer look

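The genotype difference in the class was unlike that in osteoblasts for Galntl6, by -1.53 on the log2 scale, and for Tmem132d, by 3.78, both with an adjusted p of 0.0395 by edgeR's test of the interaction. In osteoblasts Galntl6 had 58, 136, 94 and 107 UMIs in WT replicate 1, Tbx1+/- replicate 1, WT replicate 2 and Tbx1+/- replicate 2, and Tmem132d 32, 24, 35 and 17. The largest count of Galntl6 in any 1 osteoblast nucleus was 28, in Tbx1+/- replicate 1. The single nuclei that held 58 and 55 Galntl6 UMIs in the WT libraries of the class, and 15 Tmem132d UMIs in Tbx1+/- replicate 2, are part of both results. Without the highest nucleus of each library the values were -0.36 and 3.43.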

How the results depend on the processing

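The share of the class (log2 difference 0.36, adjusted p 0.0744) was called with DESeq2 and without the 8% of nuclei richest in UMIs, and not with the replicate block (0.36, adjusted p 0.700), with the annotation's own types tested (0.36, adjusted p 0.421), over all barcodes within the limits (0.44, adjusted p 0.139), with TMM factors (0.25, adjusted p 0.184) or with nuclei of at least 2000 genes (0.28, adjusted p 0.292). Leaving out each library gave 0.31 to 0.41, and the call was lost without either Tbx1+/- library. The ratio to osteoblasts rose from 0.08 to 0.52 over progenitors. Gene counts within the class went from 0 to 17 with no filter on low counts and to 0 to 2 on leaving out a library, the 2 (Cd63 and Col10a1) without WT replicate 2. Calls of the difference from osteoblasts went from 2 to 7 with no filter, 0 with DESeq2, 8 with nuclei of at least 2000 genes, 0 without each gene's highest nucleus (chosen after seeing the data), 13 with the replicate block by type, 0 against progenitors, and 13 to 25 on leaving out a library (25 without WT replicate 1, 24 without Tbx1+/- replicate 1, 13 without WT replicate 2 and 17 without Tbx1+/- replicate 2). Galntl6 and Tmem132d were among the calls of each setting with any. Directions turned for the ratio to osteoblasts without WT replicate 2 (-0.20, in a range up to 0.35 on leaving out each library), for Galntl6 within the class without its highest nuclei (0.032), for the differences of Col1a1 (-0.090), Alpl (-0.078) and Sp7 (-0.037) against progenitors, and for that of Tbx1 with nuclei of at least 2000 genes (-0.11) and without Tbx1+/- replicate 1 (-0.015, in a range up to 0.24 on leaving out each library). The cause was not tested. Where 1 library was left in a genotype, its variation was taken to equal that of the other genotype. Depth limits genes near 1 CPM, which is 4 to 6 UMIs per library in the class.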
